A study of Nematostella vectensis with 15 samples.

Results

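This account describes the genes of *Nematostella vectensis* whose RNA level differed most between libraries made at one culture temperature. For each gene the level was the log2 of CPM plus 1, where CPM is the count per 1000000 counts of the library, and the spread s was the square root of the mean of the 3 within-temperature variances of that level. Genes were chosen with a mean CPM over the 15 libraries from 5 to under 1000 and s of at least 1, which corresponds to a doubling or more per standard deviation (SD). The choice gave 21 genes of the 12426 in that CPM range (0.169%) and of 27527 genes in all. Because these values chose the genes, the spread itself is given as a description without a test. The genes are numbered 1 to 21 by falling s.

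The libraries came from adult female polyps, the F1 offspring of the cross CH2XCH6, kept in artificial sea water at 16‰ salinity and at 15, 20, or 25 °C, with 5 replicate libraries at each temperature and no other treatment. The tissue was the mesenteric body portion, and the libraries were stranded and made from polyadenylated RNA. The labels do not say whether a library was made from 1 polyp or a pool, or whether the replicates of a temperature came from separate cultures, so differences between animals, between cultures, and from handling cannot be told apart in the spread. Each library had 2 columns of counts, L1 and L2, whose meaning the labels do not give, and they were summed unless stated otherwise.

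*Nematostella* is a burrowing sea anemone of brackish water. Its mesenteries are folds of the body wall that hang into the gastric cavity and carry the gonads, the retractor muscles, and filaments rich in gland cells and stinging cells. RNA from such a piece is therefore a mixture of many cell types. In bulk libraries, fewer cells of a type and less RNA per cell cannot be told apart. The gene identifiers of the count table were not paired with names in the sources used here, so the tissue could not be checked against its markers, and the product lists prepared for cell types and pathways could not be applied. The genes are therefore described by number, position, and gene model.

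Library totals ran from 3526175 counts (15 °C replicate 3) to 22160961 counts (25 °C replicate 1), so that 3 counts, the limit that a count of 0 allows, stood for 0.851 down to 0.135 CPM. Such limits cover counting error only. The median Spearman correlation of a library with the others at its temperature lay between 0.951 and 0.976. The 15 °C replicate 3 library had the smallest total and the 15 °C replicate 4 library the lowest of these correlations.

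By choice the 21 genes had a large spread. Their s ran from 1.001 to 2.43 with a median of 1.18, against a median of 0.211 and a 99th percentile of 0.624 over the 12426 genes. The value of s was at least 1.5 for 7 genes. The threshold had no gap around it. The 3 genes just inside had s of 1.024, 1.017, and 1.001, and the 3 just outside had 0.992, 0.986, and 0.974. None of the 146 genes with a mean CPM of 1000 or more had s of at least 1. Counting error was a small part of the spread, at 0.162% to 3.05% of each gene's within-temperature variance.

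The spread was seldom equal at the 3 temperatures. The SD of the level was at least 1 at all 3 temperatures for 6 genes, at 2 for 8 genes, and at 1 for 7 genes. The median SD of the 21 genes was 1.21 at 15 °C, 1.13 at 20 °C, and 1.32 at 25 °C, and that of all 12426 genes was 0.24, 0.18, and 0.16.

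To read the spread in libraries that had not been used for the choice, the genes were chosen again from 2 temperatures and their SD was read at the third. The 22 genes chosen without the 20 °C libraries had a median SD of 1.03 there, against 0.18 for all genes in the range, and 12 of them (54.5%) reached an SD of 1, against 0.185% of all genes. At 15 °C the median SD of 22 genes was 0.87 against 0.24, and 7 (31.8%) reached 1 against 0.257%. At 25 °C the median of 29 genes was 0.46 against 0.16, and 9 (31.0%) reached 1 against 0.226%. That median depended on the scaling, at 0.76 with TMM library sizes and 0.65 with a pseudocount of 2 in place of 1. Genes that were variable at a pair of temperatures were therefore more often variable at the remaining one than genes in general, although most genes chosen without the 15 or the 25 °C libraries stayed under an SD of 1 there.

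The high values lay in several libraries, most often in 25 °C replicate 4. Deviations of at least 1 above the temperature mean were found for 14 of the 21 genes in 25 °C replicate 4, for 13 in 20 °C replicate 2, for 10 in 15 °C replicate 5, and for 6 or fewer in each other library. Of the 21 genes, 9 (42.9%) had their largest upward deviation from the temperature mean in 25 °C replicate 4, where 3.50% of the 12426 genes had theirs. Of these 9, 7 belonged to the set of 8 genes described next. The largest upward deviation lay in 15 °C replicate 3 for 4 genes, in 15 °C replicate 5 for 2 genes, and in 20 °C replicate 2 for 2 genes. Of the 12426 genes, 4.76%, 5.44%, and 5.79% had theirs in these libraries. Over all libraries that share ran from 0.740% in 20 °C replicate 5 to 20.6% in 20 °C replicate 1. Those of 15 °C replicate 3, the library with the smallest total, were genes 7, 15, 16, and 18. Each had most of its counts in 1 of the columns L1 and L2, and genes 16 and 18 were lower in larger libraries, as described below. The largest downward deviations were more scattered, with 4 genes each in 20 °C replicate 3 and 25 °C replicate 1. Without 25 °C replicate 4, 18 of the 21 genes still met the rule, and genes 11, 12, and 20 did not.

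The genes varied together in a few small sets and not as 1 block. Deviations from the temperature means had a mean Pearson's r of 0.233 over the 210 pairs of the 21 genes, against 0.130 over pairs of all 12426 genes. Of the 210 pairs, 42 had r of at least 0.6, 17 had r of at least 0.9, and none had r of -0.6 or less. The first principal component held 54.4% of the variance of the deviations and the second 14.7%. Average linkage, with sets kept at a mean r of at least 0.6, gave a set of 8 genes, a set of 3 genes, 2 pairs, and 6 genes on their own. All these correlations rest on the same 15 libraries, and they are given as a description.

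**Figure D1:**
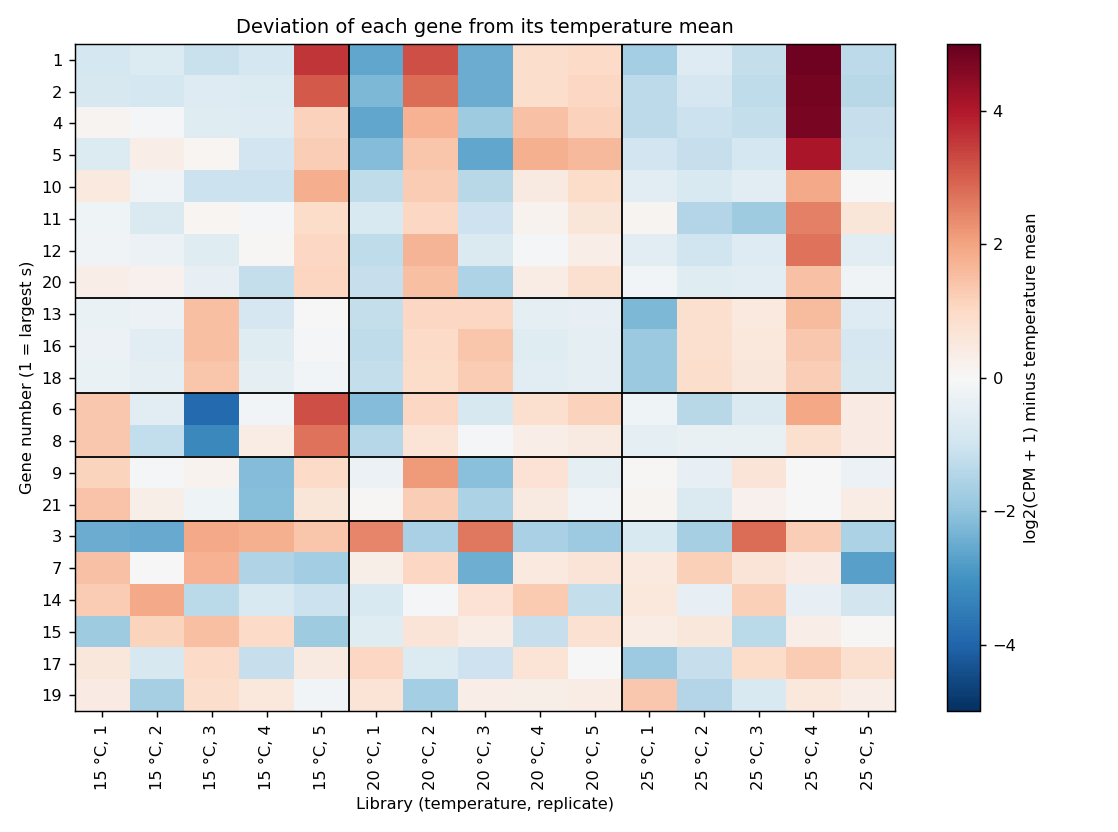
Deviation of each of the 21 genes (vertical axis, numbered by falling s and ordered by set) from its temperature mean of log2(CPM + 1) in each of the 15 libraries (horizontal axis). Red is above and blue below the mean, and black lines part the sets and the temperatures. The 8 genes at the top lie above the mean in 15 °C replicate 5, 20 °C replicates 2, 4, and 5, and 25 °C replicate 4. The exception is gene 12 in 20 °C replicate 4, at -0.062.

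The set of 8 comprised genes 1, 2, 4, 5, 10, 11, 12, and 20, which lay on 8 different scaffolds. Their deviations had a mean r of 0.875, with single pairs from 0.746 to 0.994. In all 8 genes the highest library was replicate 5 at 15 °C and replicate 4 at 25 °C, and at 20 °C replicates 2, 4, and 5 each lay above replicates 1 and 3. For 7 of the 8 genes these 5 libraries were the 5 highest of all 15. The mean r within single temperatures was 0.766 at 15 °C, 0.943 at 20 °C, and 0.937 at 25 °C, and without 25 °C replicate 4 it was 0.808. Without all 5 of these libraries the mean r over the other 10 was -0.016. These 5 were picked from the same values, and genes 1 and 2 had at most 13 and 11 counts in the other 10. The mean r over those 10 therefore cannot decide whether they also shared variation. The clearest shared feature of the set was the higher level in these 5 libraries.

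Gene 1, on scaffold 206 from 143316 to 165086 on the plus strand, has 10 exons and had the largest spread (s of 2.43). Its CPM at 15 °C was 0.530, 0.771, 0.284, 0.520, and 32.2 in replicates 1 to 5. At 20 °C it was 0.559, 87.2, 0.702, 16.1, and 17.2, and at 25 °C it was 0.226, 1.53, 0.724, 115, and 0.629. The gene thus took near-absent or clearly present levels, with 10 libraries at 13 counts or fewer, 5 libraries at 229 counts or more, and no library between 1.53 and 16.1 CPM. Both states occurred at every temperature, with 1, 3, and 1 high libraries at 15, 20, and 25 °C.

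Gene 2, on scaffold 77 from 170922 to 175468 on the minus strand, followed gene 1 in the same 5 libraries. Its CPM was 19.5 in 15 °C replicate 5, against 0.331 to 0.567 in the other 15 °C libraries. At 20 °C it was 0.503, 49.0, 0.301, 12.4, and 13.7 in replicates 1 to 5. At 25 °C it was 99.6 in replicate 4 and between 0.419 and 1.06 in the rest. No library lay between 1.06 and 12.4 CPM, and 4 libraries held 3 counts or fewer.

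Genes 4 and 5 shared the high libraries but also had a level at 15 °C. Gene 4 (scaffold 96, 91414 to 96547, minus strand) had 46.6, 41.4, 28.1, 26.9, and 95.6 CPM in the 15 °C replicates 1 to 5. At 20 °C it had 2.96, 79.3, 5.92, 65.3, and 52.2 CPM. At 25 °C it had 130 CPM in replicate 4 and 0.993 to 1.29 CPM in the other 4 libraries, a ratio of 101 between replicate 4 and the next highest. Gene 5 (scaffold 58, 782443 to 788852, plus strand) ran from 3.12 to 17.7 CPM at 15 °C. At 20 °C it had 1.01 and 0.502 CPM in replicates 1 and 3 and 23.0 to 30.1 CPM in the other 3. At 25 °C it had 46.0 CPM in replicate 4 and 0.235 to 0.517 CPM in the rest. For these genes the 15 °C libraries were all above the low libraries of 20 and 25 °C.

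The other 4 genes of the set had a smaller ratio of highest to lowest CPM. In 15 °C replicate 3, gene 12 had only 4 counts and gene 10 only 7. Gene 10 (scaffold 1) ran from 1.98 to 7.68 CPM outside the 5 high libraries and from 15.5 to 29.9 CPM in them. Gene 12 (scaffold 5) ran from 1.13 to 2.81 CPM and from 4.99 to 32.7 CPM. Gene 11 (scaffold 127), a 2-exon model that overlaps another gene on the opposite strand, ran from 7.86 to 51.0 CPM and from 65.2 to 177 CPM. Gene 20 (scaffold 81, an assembled transcript of 6 exons) ran from 18.4 to 79.5 CPM and from 72.3 to 161 CPM, so that its libraries overlapped. At 25 °C, replicate 4 exceeded the next highest library 75.2 times for gene 1, 94.2 times for gene 2, 3.85 times for gene 11, and 3.05 times for gene 20, so that the size of the shared difference varied widely within the set.

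**Figure D2:**
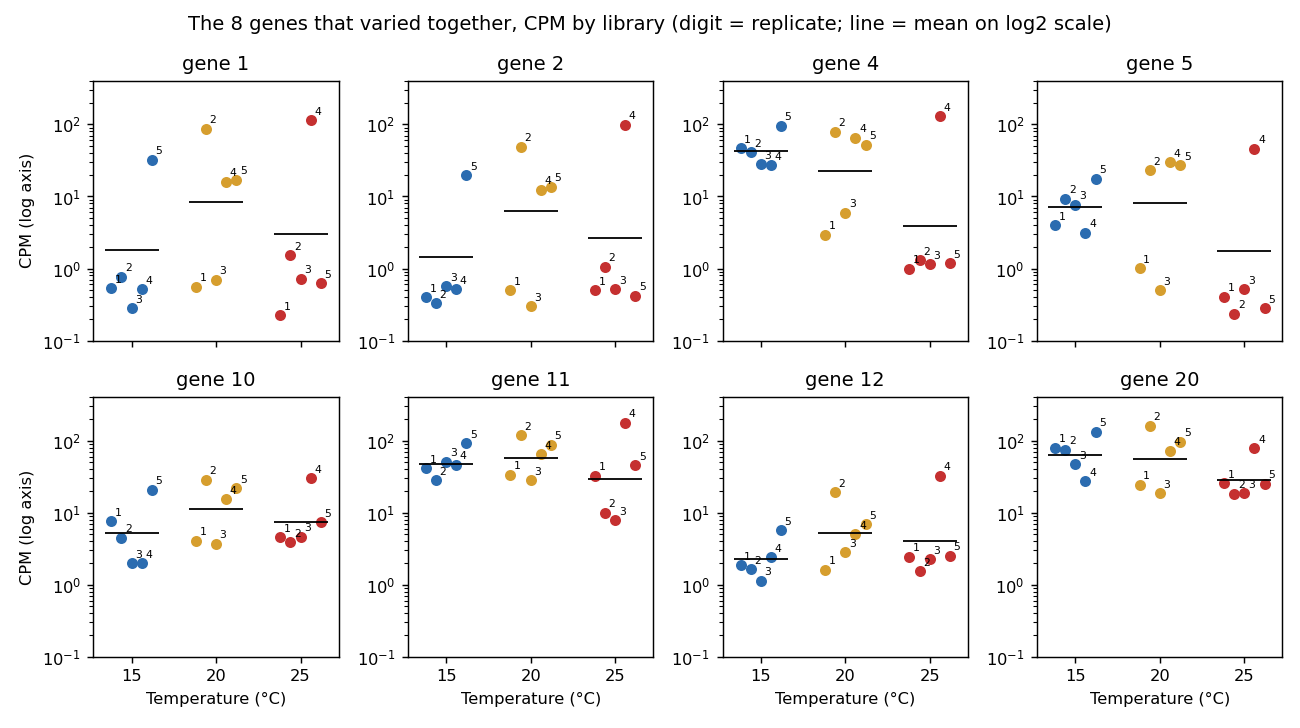
CPM on a log axis in each library for the 8 genes that varied together, by temperature, with the replicate number beside each point and a line at the mean of the log2 values. In each panel the highest 15 °C library is replicate 5, the highest 25 °C library is replicate 4, and 20 °C replicates 2, 4, and 5 lie above replicates 1 and 3.

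Beyond these 8, 22 of the other genes in the CPM range had r of at least 0.8 with the mean profile of the set, 7 of them at least 0.9. None of the 22 met the rule, and their median s was 0.512. No gene had r of -0.8 or less with that profile. The closest, on scaffold 80 from 343751 to 359436 with 15 exons, had r of 0.958 and s of 0.99, just under the threshold, and ran from 1.54 to 18.8 CPM. The gene upstream of gene 20 on the same minus strand, 125 bases away at 406302 to 416308, had s of 0.94 and r of 0.983 with gene 20. Whether these 2 models are parts of 1 transcript was not tested. No member of the 21 was a neighbor of another, and each lay on a scaffold of its own.

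Genes 6 and 8 formed a pair with r of 0.943, on scaffolds 4 (444280 to 447297, minus strand) and 12 (1365612 to 1367687, plus strand). Gene 6 had 47.0, 11.9, 0.284, 16.1, and 175 CPM in the 15 °C replicates 1 to 5, which is the widest range of the pair. At 20 °C it had 7.94, 80.7, 22.2, 69.9, and 88.2 CPM, and at 25 °C it had 11.3, 4.47, 7.65, 54.4, and 17.9 CPM. Gene 8 had 22.8, 2.97, 0, 11.1, and 60.8 CPM at 15 °C. Its 20 °C libraries lay between 7.27 and 34.5 CPM and its 25 °C libraries between 7.22 and 19.02 CPM. Both genes were therefore highest in 15 °C replicate 5 and all but absent from 15 °C replicate 3, which held 1 count of gene 6 and 0 of gene 8, a limit of 0.851 CPM. That library had the smallest total, but gene 6 had 108 counts or more in each other 15 °C library. Without it the r of the pair was 0.895, and both genes still met the rule. The profile of the pair had an r of 0.635 with that of the 8 genes, and at 20 and 25 °C the high libraries were largely shared.

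Genes 9 and 21 formed a second pair with r of 0.930, and they were also the genes that the main edgeR test called between 25 and 15 °C, as given below. Gene 21, NEMVEDRAFT_v1g223075.EDO28374 (scaffold 2240, 3992 to 8484, plus strand, 6 exons), had 65.6, 29.7, 20.4, 4.78, and 37.3 CPM in the 15 °C replicates 1 to 5. It had 22.6, 52.2, 6.42, 30.1, and 18.8 CPM at 20 °C and 7.04, 3.53, 7.65, 6.49, and 8.45 CPM at 25 °C. Of the 15 °C libraries, 4 were above all 25 °C libraries and replicate 4 fell within them, while at 20 °C only replicate 3 did. Gene 9, NEMVEDRAFT_v1g248896.EDO25990 (scaffold 9157, 1129 to 2083, plus strand, 1 exon), had 33.4, 13.7, 16.7, 2.49, and 29.5 CPM at 15 °C. It had 9.51, 55.2, 2.01, 20.1, and 8.10 CPM at 20 °C and 4.15, 2.70, 6.62, 3.97, and 3.004 CPM at 25 °C. Again 15 °C replicate 4 was the exception, lying below every 25 °C library. The pair shared its low libraries, 15 °C replicate 4 and 20 °C replicate 3, and both genes were high in 20 °C replicate 2 and 15 °C replicate 1, the highest library of gene 9 and of gene 21, respectively. At 25 °C both genes were low and even, with SDs of the level of 0.41 and 0.42, the smallest of the 21 genes there, and their r was 0.497.

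Whether the variable genes also differed in mean between temperatures was tested with edgeR's quasi-likelihood test over all 17818 genes that passed its filter on low counts, with Benjamini-Hochberg adjustment. All 21 genes passed the filter. Between 25 and 15 °C, 2 of the 21 (9.52%) were called at an adjusted p under 0.05, against 31.7% of all genes tested and 35.3% of the 12426 genes in the CPM range. Both were lower at 25 °C, where 16.7% of all genes tested were called in that direction. The spread that chose the genes also entered their standard errors, which had a median of 0.80 on the log2 scale against 0.16 over all genes tested, so the share called cannot be read as a statement on their means. The median log2 difference of the 21 genes was -0.89, against 0.00 over all genes tested.

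Gene 21, NEMVEDRAFT_v1g223075.EDO28374, fell by 2.27 on the log2 scale from 15 to 25 °C (SE 0.59, edgeR adjusted p = 0.0104). Gene 9, NEMVEDRAFT_v1g248896.EDO25990, fell by 2.26 (SE 0.80, edgeR adjusted p = 0.0465). The call for gene 21 held under each of 17 alternative settings or left-out libraries, with adjusted p from 0.000376 to 0.0362, whereas that for gene 9 held under 5 of 17, with adjusted p from 0.00824 to 0.108. Leaving out any 1 of the 10 libraries compared ended the call for gene 9, with the exception of 15 °C replicate 4, without which its adjusted p in edgeR was 0.0206. Without 25 °C replicate 4, the edgeR calls were genes 4 (adjusted p = 0.00332), 5 (0.0346), and 21 (0.0236), so that 1 high library decided whether genes 4 and 5 were called. Limma-voom called genes 4 and 21.

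Between 20 and 15 °C none of the 21 genes was called by edgeR, against 18.8% of all genes tested and 21.7% of those in the CPM range. None had an unadjusted p under 0.05, against 30.7% of all genes tested. DESeq2 and limma-voom also called none there. Between 25 and 20 °C edgeR called none, against 3.68% of all genes tested and 4.22% of those in the CPM range, and 2 had an unadjusted p under 0.05, against 17.1% of all genes tested. These were genes 9 and 21, and DESeq2 called both, with adjusted p of 0.0459 and 0.0131. Limma-voom called none. With 1 library left out, edgeR called gene 21 without 20 °C replicate 3 (adjusted p = 0.0466) and gene 4 without 25 °C replicate 4 (adjusted p = 0.0280). The 2 comparisons with 25 °C share their 25 °C libraries, and the 2 with 15 °C share theirs. The p-values measure the spread between these libraries only.

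The pair of genes 9 and 21 had many companions of smaller spread. Over the CPM range, 141 genes had r of at least 0.8 with their profile and 22 had at least 0.9, with a median s of 0.280. Another 16 genes had r of -0.8 or less with that profile. The closest, with r of 0.991 and s of 0.92, was a single-exon model on scaffold 373 from 100569 to 102586 that ran from 1.88 to 41.3 CPM. Genes 6 and 8 had 16 companions at r of at least 0.8 and none at 0.9, and 1 gene had r of -0.8 or less.

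Gene 19 (scaffold 8176, 673 to 3471, plus strand, 5 exons) belonged to no set but had the most companions. It had 68.6, 16.0, 95.9, 74.4, and 47.2 CPM at 15 °C in replicates 1 to 5. It had 120, 21.9, 93.5, 90.4, and 94.2 CPM at 20 °C and 133, 17.6, 30.1, 74.8, and 64.2 CPM at 25 °C. Replicate 2 was the lowest library at each temperature. Of the gene's within-temperature variance, 83.7% lay between replicate numbers, against a median of 38.9% over all genes in the range, and 48 of the 12426 genes had a share as high or higher. The labels do not say whether equal numbers mark a shared culture, clone, or day. At r of at least 0.8 it had 146 companions, 16 of them at 0.9 or more, and 88 genes had r of -0.8 or less. The closest, on scaffold 265 from 43229 to 45658, had r of 0.995 and s of 0.97, just under the threshold, and ran from 10.2 to 84.0 CPM.

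**Figure D3:**
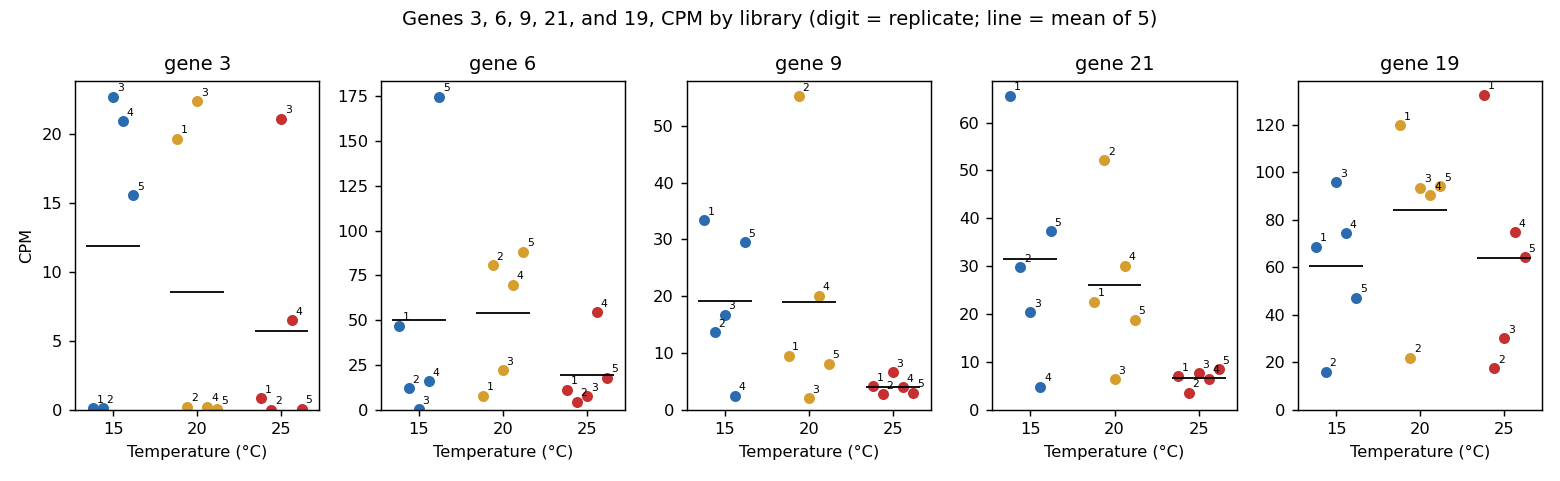
CPM in each library for genes 3, 6, 9, 21, and 19 by temperature, with the replicate number beside each point and a line at the mean of 5 libraries. Gene 3 has 8 libraries at 0.857 CPM or less and 7 between 6.49 and 22.7 CPM, gene 6 has its highest and lowest libraries both at 15 °C, genes 9 and 21 are even at 25 °C, and gene 19 is lowest in replicate 2 at each temperature.

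Read separately, the 2 count columns of each library divided the 21 genes. L1 held 61.6% of all counts. For 14 of the 21 genes L1 held 52.4% to 66.8% of the gene's counts, and the deviations in L1 and L2 correlated with r from 0.901 to 0.994 over the 15 libraries, against a median r of 0.624 over all genes in the range. Because the genes were chosen for a large spread in the sum of the columns, an r above that median follows in part from the choice. The spread of those 14 genes was present in both columns, with s of at least 0.99 in each. These 14 include the whole set of 8, both pairs, and genes 14 and 19.

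The other 7 genes had less than 20% or more than 80% of their counts in L1, which 66 of the 12426 genes (0.531%) did. Each of the 7 lay on a scaffold with at most 3 gene models, as did 3 of the other 14 genes and 5.54% of all genes in the range. Of the 66 genes with such unequal shares, these 7 included, 33 (50%) lay on scaffolds of that kind. The bounds of 20% and 80% were set after the values were seen. What the columns stand for is not given in the sources used here, and the reason for the unequal shares was not tested.

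Genes 3, 7, 15, and 17 had most of their counts in L1, at 98.9%, 98.8%, 85.4%, and 85.9%. Gene 3 (scaffold 2954, 14 to 1138, minus strand, 262 exonic bases) had the third largest spread. Its CPM was 0.132, 0.110, 22.7, 20.9, and 15.5 at 15 °C, 19.6, 0.224, 22.4, 0.211, and 0.0604 at 20 °C, and 0.857, 0, 21.1, 6.49, and 0.0699 at 25 °C. In 15 °C replicate 4 all 201 counts were in L1, and in 20 °C replicate 1 it was 348 counts in L1 and 3 in L2. No library had more than 3 counts of gene 3 in L2. The present and absent states of gene 3 were thus seen in 1 column only, and the r between columns was -0.147.

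Gene 7 (scaffold 6037, 234 to 916, plus strand) had the opposite form, with 11 libraries between 6.94 and 35.6 CPM and 4 libraries between 1.29 and 1.77 CPM. The low libraries were 15 °C replicates 4 and 5, 20 °C replicate 3, and 25 °C replicate 5. Its L2 counts were 6 or fewer in every library, so L2 did not show the difference, and the r between columns was -0.337. Gene 15 (scaffold 751, 6003 to 9239) ran from 0.906 to 20.3 CPM, with 0.927 and 0.906 CPM in 15 °C replicates 1 and 5 and at least 3.72 CPM elsewhere. Gene 17 (scaffold 1321, 33100 to 35136, minus strand) ran from 2.53 to 29.1 CPM. For genes 15 and 17, L1 and L2 deviations were nearly unrelated, with r of 0.0652 and 0.00928. None of these 4 genes fell in a set, and they had 3, 2, 1, and 9 companions at r of at least 0.8. At r of -0.8 or less they had 7, 2, 11, and 3 genes.

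**Figure D4:**
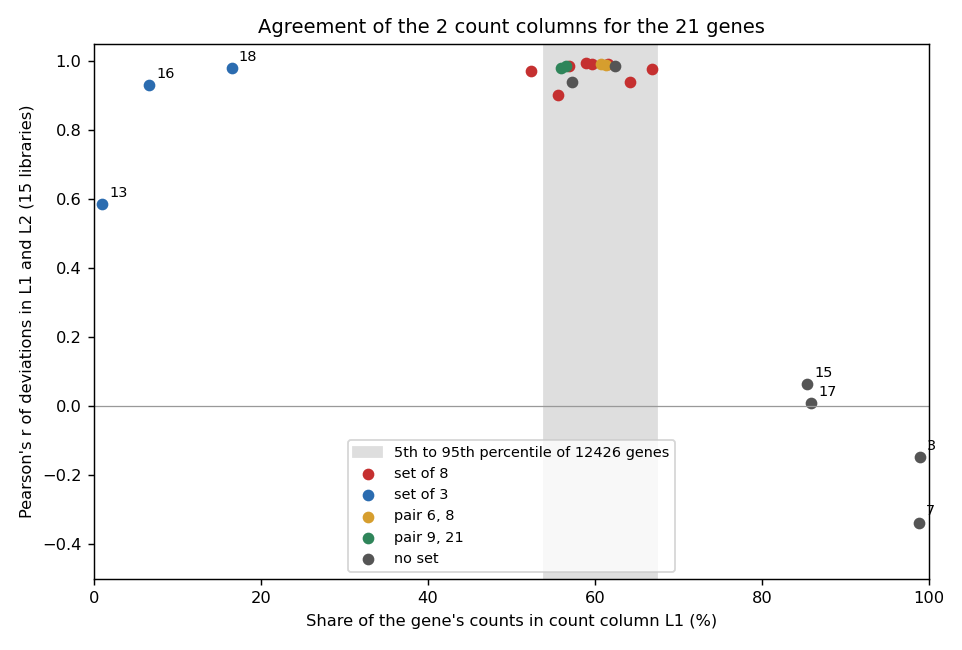
Share of each gene's counts in column L1, summed over 15 libraries (horizontal axis), and Pearson's r between its deviations from temperature means in L1 and in L2 (vertical axis), for the 21 genes colored by set. The gray band spans the 5th to 95th percentile of the share over the 12426 genes (54.0% to 67.5%), and the 7 numbered genes lie far outside it.

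Genes 13, 16, and 18 formed the set of 3 and had their counts mostly in L2, with 0.935%, 6.62%, and 16.5% in L1. Their L1 and L2 deviations nevertheless correlated, with r of 0.586, 0.930, and 0.980. Gene 13 is an assembled transcript of 754 exonic bases that is the only model on scaffold 4844 (5967 to 7238, plus strand). Genes 16 (scaffold 15164, 899 to 1072) and 18 (scaffold 9679, 2630 to 2803) are single-exon JGI models of 174 bases each. The deviations of the 3 genes correlated with r from 0.982 to 0.998. The ratio of the counts of gene 16 to those of gene 18 stayed between 0.683 and 0.844 in all 15 libraries. Whether these short models share reads with near-identical copies was not tested, so their separate levels are uncertain.

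These 3 genes were lowest in the largest libraries. Gene 18 had 158, 142, 525, 145, and 181 CPM at 15 °C, 37.0, 165, 207, 58.9, and 61.1 CPM at 20 °C, and 24.1, 166, 133, 210, and 50.7 CPM at 25 °C. The highest value was in the library with the smallest total and the lowest in the library with the largest total. Over 15 libraries the level of genes 13, 16, and 18 had r of -0.930, -0.923, and -0.932 with the log2 of the total, and -0.873, -0.854, and -0.878 without the 2 libraries whose totals were farthest from the median. Over all genes in the range the median r was 0.218, and 22 genes (0.177%) had r of -0.8 or less. Within 15, 20, and 25 °C the r for gene 18 was -0.987, -0.952, and -0.920.

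The counts themselves were also lower in the larger libraries. Gene 18 had 1852 counts in the smallest library and 535 in the largest, and the log2 of its counts had r of -0.720 with the log2 of the total, against a median of 0.944 over all genes in the range. Gene 13 ran from 192 to 1498 counts and gene 16 from 404 to 1963. Only 42 of the 12426 genes had a negative r between counts and totals. A further 11 genes had r of at least 0.8 with the profile of the 3, with a median exonic length of 165 bases, and 8 of them also had L1 shares outside 20% to 80%. Another 15 genes had r of -0.8 or less with that profile. The part of library size in the spread of genes 13, 16, and 18 beyond their correlation with the totals was not tested.

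**Figure D5:**
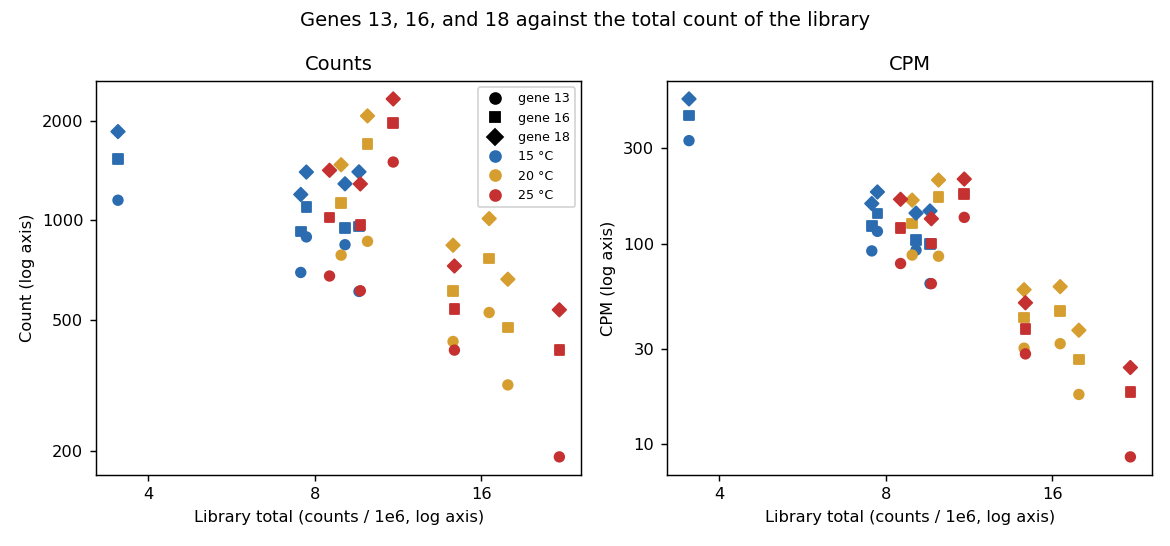
Counts (left) and CPM (right) of genes 13, 16, and 18 against the total count of each of the 15 libraries, all on log axes, with shape for the gene and color for the temperature. Both quantities are lower in the largest libraries, and the highest CPM of each gene is in the library with 3526175 counts.

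The remaining gene, gene 14, fell in no set, and it had 7 companions at r of at least 0.8 and 4 genes at -0.8 or less. It is an assembled transcript of 6 exons on scaffold 10 (163502 to 166724, plus strand) that overlaps a model on the opposite strand. Its CPM was 13.8, 22.1, 1.42, 2.60, and 1.94 at 15 °C, 1.57, 3.02, 6.02, 9.69, and 0.907 at 20 °C, and 3.61, 1.41, 6.31, 1.44, and 0.699 at 25 °C. Its L1 and L2 deviations correlated with r of 0.940. With a mean of 5.10 CPM it lay at the lower edge of the CPM range.

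In gene structure the 21 genes were shorter than the rest of the range. Their median exonic length was 717 bases against 1569, their median span 3018 bases against 5966.5, and their median exon number 4 against 7. Of the 21 genes, 3 (14.3%) had a single exon against 9.71%. Transcripts assembled by TACO made up 6 (28.6%) against 34.8%, and 4 of these (19.05% of the 21) had no matching JGI model against 7.87%. A further property was the scaffold, as 10 genes (47.6%) lay on scaffolds with at most 3 gene models against 5.54%, and 7 of these 10 were the genes with unequal L1 and L2 counts. The median exonic length was 521 bases for those 7 genes and 951 for the other 14.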

How the data were processed

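The deposited table held raw counts, whole numbers of fragments per gene that the authors made without normalization, in 2 columns (L1 and L2) for each of 15 libraries. The submitters' processing notes name Trimmomatic 0.38, HISAT2 2.1.0, StringTie 2.0, and featureCounts, without their order. The genome build is not given in the sources used here, and positions are those of the deposited gene models, 1-based, on scaffolds numbered as there. Deposited exon lengths equaled the summed exons for all 27527 genes. Libraries were grouped by the temperature in their titles.

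L1 and L2 were summed, scaled to CPM by the library total, and analyzed as log2(CPM + 1). Deviations are from the temperature mean, and a set's companions were counted at r of at least 0.8. Sets were made by average linkage on 1 minus Pearson's r, with the tree split at 0.4. As no set reached the planned 10 genes, sets of 2 or more are described, a choice made after seeing the data. The test was edgeR 4.0.16 in R 4.3.3 (TMM, filterByExpr, robust quasi-likelihood F-test, 3-level temperature, all 15 libraries). It was checked on simulated counts that gave every gene the same spread parameter, so the check does not cover genes as variable as these. DESeq2 1.42.0, limma 3.58.1, other scalings and filters, single count columns, thinning, and left-out libraries were alternatives. Other computations used Python 3.11.15 with pandas 2.3.3.

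The genes, lists, and tests were chosen with earlier results of these data known. By rule, the genes of largest s and those called between temperatures were to be named. As 0 of the table's identifiers matched the RefSeq gene table, identifiers are printed only for called genes, at most 2 in each direction, and other genes carry their number. No sequence was used.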

Additional observations from a re-analysis of the deposited data

Results flagged for a closer look

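Within a temperature, 1 library stood apart from the other 4 in 14 of 66 groups of 5 libraries examined. The measure was the gap between an extreme library and its nearest neighbor as a share of the whole range of log2(CPM + 1), set against 0.71, the 95% critical value of Dixon's test. Chance flags about 1 in 20 groups of unselected values, but these genes were chosen for their spread within a temperature, so that rate does not apply and the number is a description.

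At 25 °C the replicate 4 library was high, with gap shares of 0.841 for gene 1, 0.913 for gene 2, 0.967 for gene 4, 0.944 for gene 5, 0.873 for gene 12, and 0.771 for gene 20, all members of the set of 8. At 15 °C the replicate 5 library was high for genes 1 (0.901) and 2 (0.940), and the replicate 3 library for genes 16 (0.761) and 18 (0.815). Low libraries stood apart for gene 7 in 20 °C replicate 3 (0.788) and in 25 °C replicate 5 (0.805), for gene 15 in 25 °C replicate 3 (0.730), and for gene 19 in 20 °C replicate 2 (0.832).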

How the results depend on the processing

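The number of genes meeting the rule was 59 with s of at least 0.8 and 7 with s of at least 1.5. It was 18 to 32 with 1 library left out, the highest without 15 °C replicate 3, and each such choice kept at least 16 of the 21. With the median absolute deviation as the spread, 18 genes met the rule and only 10 of them were among the 21. Other settings gave 15 to 30 genes, and 15 to 21 of them were among the 21. Scaling each gene to unit variance lowered the share on the first component from 54.4% to 43.0%. It was 47.2% to 59.0% with 1 library left out, and the mean pairwise r was then 0.164 to 0.267. Sets of at least 10 genes held 10 genes with the tree split at 0.5 and with Spearman correlations, and 0 otherwise. The median SD at 25 °C of genes chosen without it was 0.46, and 0.76 with TMM sizes. Between 25 and 15 °C, 1 gene was called without the filter on low counts and 1 to 3 with 1 library left out. Between 25 and 20 °C, DESeq2 called 2, and edgeR 0 to 1 with 1 library left out.

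With the replicate number as a block, 1 gene was called between 25 and 15 °C, gene 21, and gene 9 was not (edgeR adjusted p = 0.102), and the block changed no other count of calls. Same-numbered libraries deviated together only in part, with r from -0.089 to 0.286 over 15 pairs, 6 of them over 0.1. Their mean r was 0.089, against -0.022 over the 60 pairs with unequal numbers. The numbers were not taken to pair the libraries in the main test, and whether they do was not settled. Depth limits the lowest levels, as 3 counts stood for up to 0.851 CPM. The cause of the changes listed was not tested.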
